A study of Mus musculus with 9 samples.

Results

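The genes described here encode 3 interferon receptor chains (Ifnar1, Ifnar2 and Ifngr1), the signal transducer Stat2 and 5 interferon regulatory factors (Irf1, Irf2, Irf3, Irf7 and Irf9). They were chosen by symbol, and all 9 were found among the 55418 symbols of the count table. Each passed the filter on low counts that left 15914 genes for testing. The data are 9 mRNA libraries of 66cl4, an established mouse mammary carcinoma line labelled triple negative, with 3 libraries per group. The control cells carried a scrambled hairpin (SCR), and the other groups carried a hairpin against Eya3, named shEya3_KD1 or shEya3_KD2. Cells of all groups had been transduced with a hairpin and kept under puromycin, and no interferon or other stimulus is named in the labels. Whether a transduced line was a pool or a single clone is not given in the sources used here, and the biological replicates are not described further, so p-values measure the spread between these libraries.

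Type I interferons bind a receptor of the chains Ifnar1 and Ifnar2, whose kinases Tyk2 and Jak1 phosphorylate Stat proteins such as Stat2. Phosphorylated Stat2 and Irf9 are parts of ISGF3, the complex that binds interferon-stimulated response elements in the promoters of antiviral genes. Irf3, which most cells hold ready-made, and Irf7, which is itself an interferon-induced gene, are the factors that switch on interferon genes after viral nucleic acids are sensed. Irf1 is an activator induced by interferon gamma through its receptor chains Ifngr1 and Ifngr2, and Irf2 binds the same sites and is known mainly as a repressor.

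The promoter windows of Irf7, Stat2, Irf9, Irf1 and Irf2, the 5 members whose mRNA differed most between the hairpins, are shown here because these genes moved together, and because 2 motifs of the pathway could be looked for in them. The windows are RefSeq's, on GRCm38.p6 (mm10), run from 250 bases before to 50 bases after an annotated start site, and were found for all 9 genes (11 windows). Capitals mark the core of the response element bound by ISGF3 and Irf factors (GAAA, any 2 bases and GAAA, or TTTC, any 2 bases and TTTC on the other strand) and the gamma-activated site bound by Stat dimers (TTCNNNGAA, which reads the same on both strands). The matches shown did not overlap each other. Irf1 and Irf9 each had a second window, which held neither motif, and the first is shown.
Stat2, chr10:128270248-128270547, plus strand: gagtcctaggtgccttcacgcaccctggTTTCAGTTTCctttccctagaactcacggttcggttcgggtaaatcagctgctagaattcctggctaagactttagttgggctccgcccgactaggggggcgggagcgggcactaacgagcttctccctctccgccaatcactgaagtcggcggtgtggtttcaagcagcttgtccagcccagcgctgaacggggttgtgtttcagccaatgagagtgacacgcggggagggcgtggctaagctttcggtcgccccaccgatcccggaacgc
Irf2, chr8:46739495-46739794, plus strand: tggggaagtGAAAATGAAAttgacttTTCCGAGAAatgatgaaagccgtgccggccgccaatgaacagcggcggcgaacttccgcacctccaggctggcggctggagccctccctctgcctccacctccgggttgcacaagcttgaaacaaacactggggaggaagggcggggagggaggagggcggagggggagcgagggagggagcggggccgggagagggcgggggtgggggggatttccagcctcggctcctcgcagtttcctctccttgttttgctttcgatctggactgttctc
Irf1, chr11:53769764-53770063, plus strand: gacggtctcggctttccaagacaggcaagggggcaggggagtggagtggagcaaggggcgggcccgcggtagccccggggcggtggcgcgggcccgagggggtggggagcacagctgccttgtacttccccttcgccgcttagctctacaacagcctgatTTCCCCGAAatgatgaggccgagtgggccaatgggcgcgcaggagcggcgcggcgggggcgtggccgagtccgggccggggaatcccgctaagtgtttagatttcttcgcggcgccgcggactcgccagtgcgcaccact
Irf7, chr7:141266375-141266674, minus strand: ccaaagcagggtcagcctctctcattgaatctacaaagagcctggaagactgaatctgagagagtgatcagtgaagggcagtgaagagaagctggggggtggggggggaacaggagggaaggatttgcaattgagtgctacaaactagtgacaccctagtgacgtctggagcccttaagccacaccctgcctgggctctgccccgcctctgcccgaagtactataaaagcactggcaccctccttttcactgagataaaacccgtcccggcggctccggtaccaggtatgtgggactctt
Irf9, chr14:55603735-55604034, plus strand: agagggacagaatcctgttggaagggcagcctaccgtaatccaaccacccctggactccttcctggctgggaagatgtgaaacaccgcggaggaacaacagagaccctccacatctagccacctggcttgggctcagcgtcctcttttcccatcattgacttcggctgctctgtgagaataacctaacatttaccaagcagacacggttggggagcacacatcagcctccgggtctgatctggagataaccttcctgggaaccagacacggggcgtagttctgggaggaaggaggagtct

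The response element core was matched in the windows of Stat2 and Irf2, which is 2 of the 9 genes, against 3.99% of all 27025 genes with a window. A gamma-activated site was matched in Irf1, Irf2, Ifnar1 and Ifnar2, which is 4 of 9, against 9.55% of all genes. The windows of Irf7, Irf9, Irf3 and Ifngr1 held neither set of letters, which says only that these letters are not in these windows. Of 32 interferon-induced effector genes with a window 16 held the response element core. These matches describe letters and do not show a bound site.

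Eya3, the gene targeted by the hairpins, stood at 68.1, 79.0 and 71.7 CPM (read counts relative to library totals scaled by TMM factors) in SCR, at 24.9, 21.5 and 22.9 CPM in shEya3_KD1, and at 38.7, 39.8 and 34.1 CPM in shEya3_KD2. It fell with both hairpins, by 1.66 and 0.96 on the log2 scale, and no groups overlapped. Library totals lay between 27758862 and 52691960 counts, the lowest in shEya3_KD2 replicate 2.

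Of the epithelial and mammary markers checked, Krt8 and Vim were abundant in all groups, while Epcam and Pgr had no counts in any library. The other keratins and Cdh1 were low in SCR. Over SCR, shEya3_KD1 and shEya3_KD2, Cdh1 had 9, 5 and 22 counts and Krt18 4, 112 and 308. Krt19 had 3, 3 and 55, Krt5 3, 60 and 4, Krt14 191, 65 and 1465, and Krt7 64, 197 and 60. The line is labelled triple negative, but Esr1 had 1018, 1745 and 1839 counts and Erbb2 7667, 7688 and 8077 in the same order. Both rose with each hairpin by edgeR. Of all genes tested 26.2% fell and 24.1% rose with shEya3_KD1, and 22.3% fell and 23.0% rose with shEya3_KD2. Of 13 macrophage markers 5 were tested, of which 4 fell and 1 rose with shEya3_KD1, whereas 3 fell and 2 rose with shEya3_KD2. Their summed level was 51.2 to 54.0 CPM in SCR, 27.5 to 32.2 CPM in shEya3_KD1 and 23.0 to 28.7 CPM in shEya3_KD2, mostly Lyz2 in SCR and shEya3_KD1 and Cd68 and Lyz2 in shEya3_KD2, while C1qa and C1qc had no counts in any group. Single markers did not share a direction: C1qb had 4, 32 and 44 counts, Ptprc 90, 24 and 5, and the T cell gene Cd3g 69, 119 and 35 over SCR, shEya3_KD1 and shEya3_KD2. In the same order Mrc1 had 552, 23 and 173 counts and Lyz2 5517, 2946 and 1357, both lower with each hairpin. Cd68 had 1380, 409 and 1451. Lymphocyte markers (2 of 10 tested) summed to 0.865 to 1.09, 1.30 to 1.47 and 0.472 to 0.605 CPM in the 3 groups. Fibroblast markers (4 of 8 tested) summed to 28.9 to 36.0, 53.7 to 58.7 and 30.9 to 45.3 CPM, so they were highest in shEya3_KD1, where 3 rose and 1 fell, and endothelial markers (3 of 6 tested) to 4.12 to 4.88, 2.25 to 3.23 and 1.89 to 2.57 CPM. Of the endothelial markers 1 rose and 2 fell with shEya3_KD1. Among the fibroblast and endothelial markers, Pdgfrb had 85, 1400 and 314 counts, Col1a2 12, 528 and 14, and Emcn 2, 264 and 0. Others were highest in SCR: Col1a1 had 525, 154 and 287 counts, Cdh5 530, 31 and 253, and Tie1 103, 21 and 12. The single markers given here were chosen after their values were seen, and their part in the values of the 9 genes was not tested. The 9 markers of plasmacytoid dendritic cells, which make much interferon, summed to 186 to 196, 122 to 131 and 289 to 390 CPM in SCR, shEya3_KD1 and shEya3_KD2, the same order of groups as for Irf7 and Stat2, and the part of these markers in those values was not tested. That sum was mostly Bst2, which is also on the list of interferon-induced effectors, and Tcf4, while the defining marker Siglech had 2 counts in SCR and none with either hairpin and Ccr9 none in any group. From bulk RNA, fewer cells of a kind and less RNA per cell cannot be told apart.

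The 9 genes were lower or near the control with shEya3_KD1 and split into a group that rose and a group that stayed close to the control with shEya3_KD2. By the quasi-likelihood test of edgeR, adjusted after Benjamini and Hochberg, 8 of the 9 fell with shEya3_KD1, where 26.2% of all genes tested fell and 24.1% rose (50.3% in either direction). With shEya3_KD2 6 of the 9 rose, where 23.0% of all genes tested rose and 22.3% fell (45.3% in either direction). Between the hairpins 8 of the 9 were higher with shEya3_KD2 than with shEya3_KD1, against 27% of all genes tested, with 22.5% lower (49.6% in either direction). No member rose with shEya3_KD1 or was lower with shEya3_KD2 than with shEya3_KD1, by edgeR, DESeq2 or limma-voom, also at an unadjusted p under 0.05 (0 genes each). With shEya3_KD2 against SCR 0 of the 9 fell in edgeR, 1 in DESeq2 and 0 in limma-voom. At an unadjusted p under 0.05 these counts were 1, 2 and 2. The median log2 fold change of the 9 genes was -0.48 with shEya3_KD1 and 0.55 with shEya3_KD2, while that of all genes tested was 0.014 and -0.0044. The comparisons with SCR share the same 3 control libraries.

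**Figure D1:**
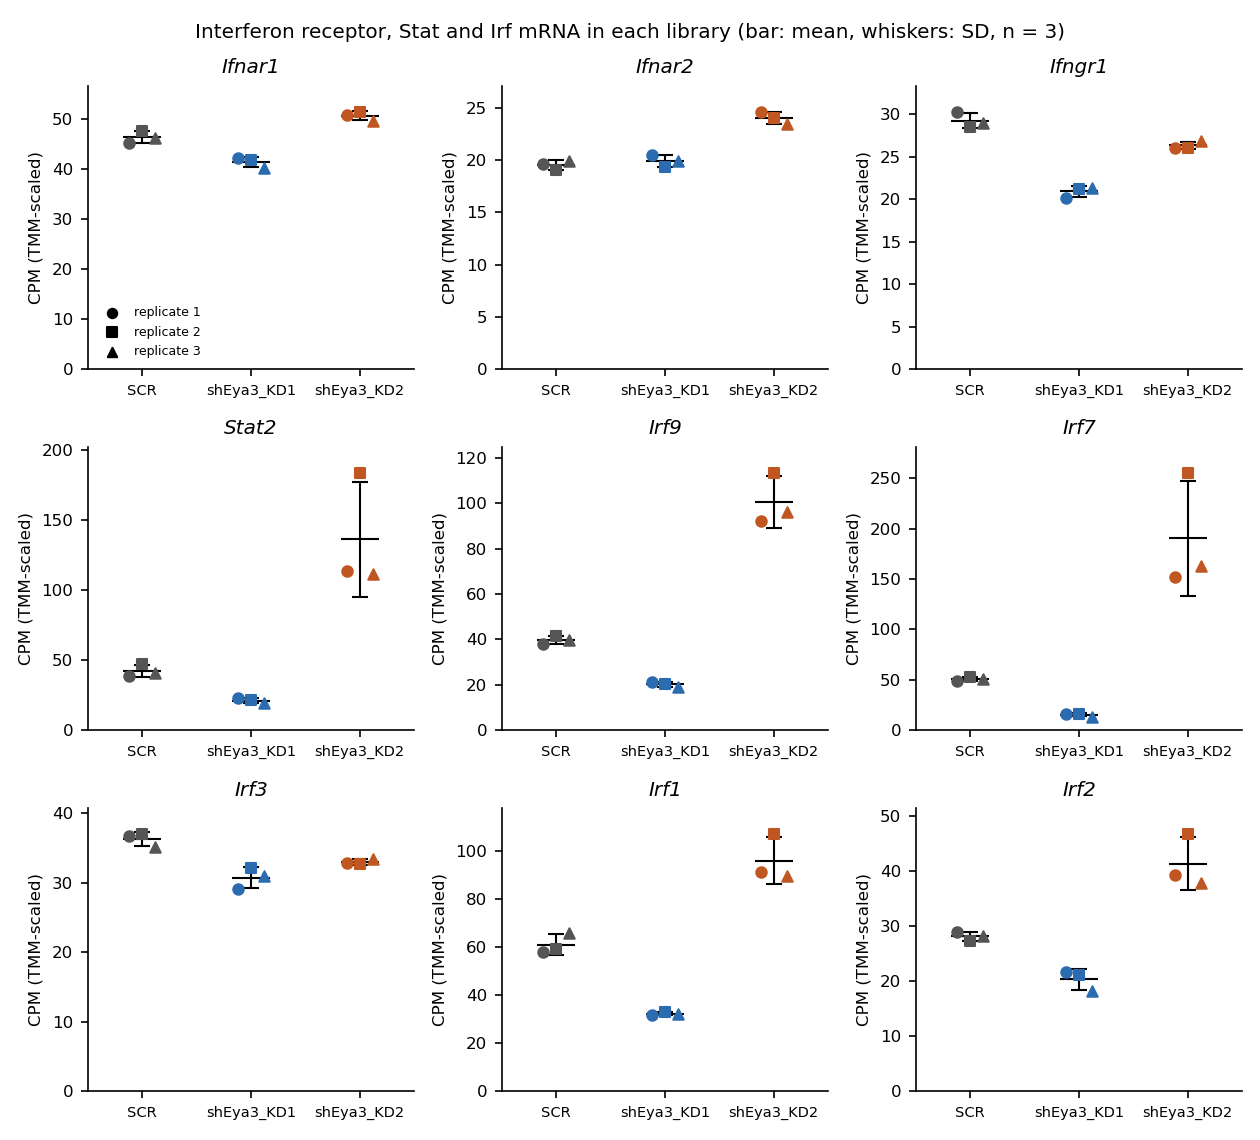
Each panel plots one gene's CPM (vertical axis, from 0, TMM-scaled) in the 9 libraries by group, with the mean and SD of 3 libraries as bar and whiskers. Stat2, Irf9, Irf7, Irf1 and Irf2 are lowest in shEya3_KD1 and highest in shEya3_KD2, where replicate 2 (square) lies above the other libraries, whereas Ifnar1, Ifnar2, Ifngr1 and Irf3 span narrow ranges.

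Ifnar1, the low-affinity chain of the type I interferon receptor (mm10, chromosome 16, 91485238 to 91507441), had 45.2, 47.6 and 46.1 CPM in SCR. The shEya3_KD1 libraries had 42.2, 41.7 and 40.1 CPM and the shEya3_KD2 libraries 50.8, 51.4 and 49.7 CPM. The 3 groups did not overlap, but their distances were small. With shEya3_KD1 the log2 fold change was -0.16 ± 0.06 (SE; adjusted p = 0.0343 by edgeR). This call was lost in 5 of 16 alternatives: without a filter (adjusted p = 0.125) and without SCR replicate 2 (0.0879), SCR replicate 3 (0.0741), shEya3_KD1 replicate 2 (0.0640) or shEya3_KD1 replicate 3 (0.0788). With shEya3_KD2 Ifnar1 did not pass the test against SCR (0.13 ± 0.06, adjusted p = 0.0936). Its log2 difference between the hairpins was 0.29 ± 0.06, higher for shEya3_KD2 (adjusted p = 9.65e-04).

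Ifnar2, the high-affinity chain (chromosome 16, 91372783 to 91405589), was close to the control with shEya3_KD1 and higher with shEya3_KD2. It had 19.7, 19.0 and 19.9 CPM in SCR, 20.5, 19.3 and 19.9 CPM in shEya3_KD1, and 24.6, 24.0 and 23.4 CPM in shEya3_KD2. The SCR and shEya3_KD1 libraries overlapped, and the shEya3_KD2 libraries lay above both. Ifnar2 rose with shEya3_KD2 (log2 fold change 0.30 ± 0.07, adjusted p = 0.00187 by edgeR), and with shEya3_KD1 its log2 fold change was 0.027 ± 0.067 (adjusted p = 0.765), or -0.0036 without SCR replicate 2. Its exons share 315 bases, 9.46% of their length, with Gm21970 on the same strand, and how reads there were assigned is not given in the sources used here.

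Ifngr1, the ligand-binding chain of the interferon gamma receptor (chromosome 10, 19591949 to 19610229), was highest in the control. Its libraries had 30.3, 28.5 and 29.0 CPM in SCR, 20.1, 21.2 and 21.4 CPM in shEya3_KD1 and 26.1, 26.0 and 26.8 CPM in shEya3_KD2, with no overlap between groups. It fell with shEya3_KD1 to 71.5% of the SCR mean (log2 fold change -0.48 ± 0.07, adjusted p = 1.76e-05 by edgeR). With shEya3_KD2 the log2 fold change was -0.15 ± 0.06, which did not pass (adjusted p = 0.0689) but did with RLE size factors (0.0485), in DESeq2 (0.0478) and with a filter of 5 CPM (0.0180). The partner chain Ifngr2, which is needed for signalling, also fell with shEya3_KD1, from 44.9 ± 0.930 (SD, n = 3) to 19.7 ± 1.96 CPM (log2 fold change -1.19 ± 0.08). With shEya3_KD2 Ifngr2 was at 38.0 ± 1.27 CPM and fell by 0.24 on the log2 scale (adjusted p = 0.0155 by edgeR; 0.0558 without SCR replicate 1). Both chains of this receptor were thus lower with shEya3_KD1 than with shEya3_KD2, Ifngr1 by 0.33 ± 0.07 and Ifngr2 by 0.95 ± 0.08 on the log2 scale.

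Stat2 and Irf9, which take part in ISGF3, moved over a wider range than the receptor chains. Stat2 (chromosome 10, 128270559 to 128292849), whose promoter window held the response element core, had 38.9, 47.1 and 40.8 CPM in SCR. It had 22.6, 21.3 and 19.2 CPM in shEya3_KD1 and 113, 184 and 111 CPM in shEya3_KD2. No groups overlapped, and among the shEya3_KD2 libraries replicate 2 stood well above the rest. Stat2 fell to 49.7% of the SCR mean with shEya3_KD1 (log2 fold change -1.01 ± 0.19, adjusted p = 0.00135 by edgeR) and rose to 322% with shEya3_KD2 (1.68 ± 0.18, adjusted p = 5.47e-05). Without shEya3_KD2 replicate 2 the rise was 1.41, the lowest value over 16 alternatives.

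Irf9, the DNA-binding subunit of ISGF3 (chromosome 14, 55603571 to 55610030), had 37.8, 41.7 and 39.7 CPM in SCR, 21.4, 20.1 and 19.2 CPM in shEya3_KD1 and 92.2, 113 and 96.0 CPM in shEya3_KD2. The groups again lay apart, with a smaller spread in shEya3_KD2 (coefficient of variation 11.3%) than for Stat2 (30.3%). The log2 fold changes were -0.97 ± 0.08 with shEya3_KD1 (adjusted p = 1.62e-07 by edgeR) and 1.34 ± 0.08 with shEya3_KD2 (adjusted p = 1.15e-08). Irf9 shares 123 exonic bases with Rnf31 on the same strand, 2.28% of its exon length.

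Irf7 (chromosome 7, 141262706 to 141266481), the interferon-induced factor that amplifies interferon production, had the widest range of the 9 genes. It had 48.6, 52.8 and 51.1 CPM in SCR, 15.7, 16.2 and 13.4 CPM in shEya3_KD1 and 152, 255 and 163 CPM in shEya3_KD2. Every shEya3_KD1 library was below, and every shEya3_KD2 library above, the SCR libraries. Irf7 fell 3.36-fold with shEya3_KD1 (log2 fold change -1.75 ± 0.18, adjusted p = 2.39e-05 by edgeR) and rose 3.73-fold with shEya3_KD2 (1.90 ± 0.18, adjusted p = 1.68e-05). Between the hairpins it was 12.6-fold higher with shEya3_KD2, rank 344 of 15914 genes by size of change. Without shEya3_KD2 replicate 2 the rise against SCR was 1.63 on the log2 scale.

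Irf3 (chromosome 7, 44997648 to 45002848), the factor activated by phosphorylation, stayed within a narrow range. It had 36.7, 37.0 and 35.1 CPM in SCR, 29.1, 32.2 and 31.0 CPM in shEya3_KD1 and 32.8, 32.7 and 33.4 CPM in shEya3_KD2. The SCR libraries were the highest, and those of the hairpins lay close to each other. Irf3 fell with shEya3_KD1 (log2 fold change -0.24 ± 0.06, adjusted p = 0.00615 by edgeR). With shEya3_KD2 it was at -0.14 ± 0.06 (adjusted p = 0.0986; 0.0289 with a filter of 5 CPM). It was the only one of the 9 without a call between the hairpins (0.10 ± 0.06, adjusted p = 0.210). Irf3 and Irf7 share short exonic stretches with the genes on the opposite strand, 88 bases with Bcl2l12 and 45 with Phrf1. Without a stated strand setting such reads cannot be assigned.

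Irf1 (chromosome 11, 53770014 to 53778374), whose promoter window held a gamma-activated site, had 58.1, 59.1 and 65.9 CPM in SCR. It had 31.7, 33.0 and 32.0 CPM in shEya3_KD1 and 91.2, 107 and 89.7 CPM in shEya3_KD2, again without overlap. The log2 fold changes were -0.92 ± 0.08 (adjusted p = 1.58e-07 by edgeR) and 0.65 ± 0.08 (adjusted p = 9.90e-06). In contrast to Irf7 and Stat2, Irf1 was thus farther from the control with shEya3_KD1 than with shEya3_KD2 on the log2 scale, a difference of sizes that was not tested.

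Irf2 (chromosome 8, 46739732 to 46847458), the antagonist of Irf1 with both motifs in its window, went the same way as its counterpart. It had 28.8, 27.3 and 28.3 CPM in SCR, 21.7, 21.2 and 18.2 CPM in shEya3_KD1 and 39.3, 46.8 and 37.9 CPM in shEya3_KD2. Irf2 fell with shEya3_KD1 (log2 fold change -0.47 ± 0.09, adjusted p = 4.95e-04 by edgeR) and rose with shEya3_KD2 (0.55 ± 0.09, adjusted p = 1.39e-04).

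**Figure D2:**
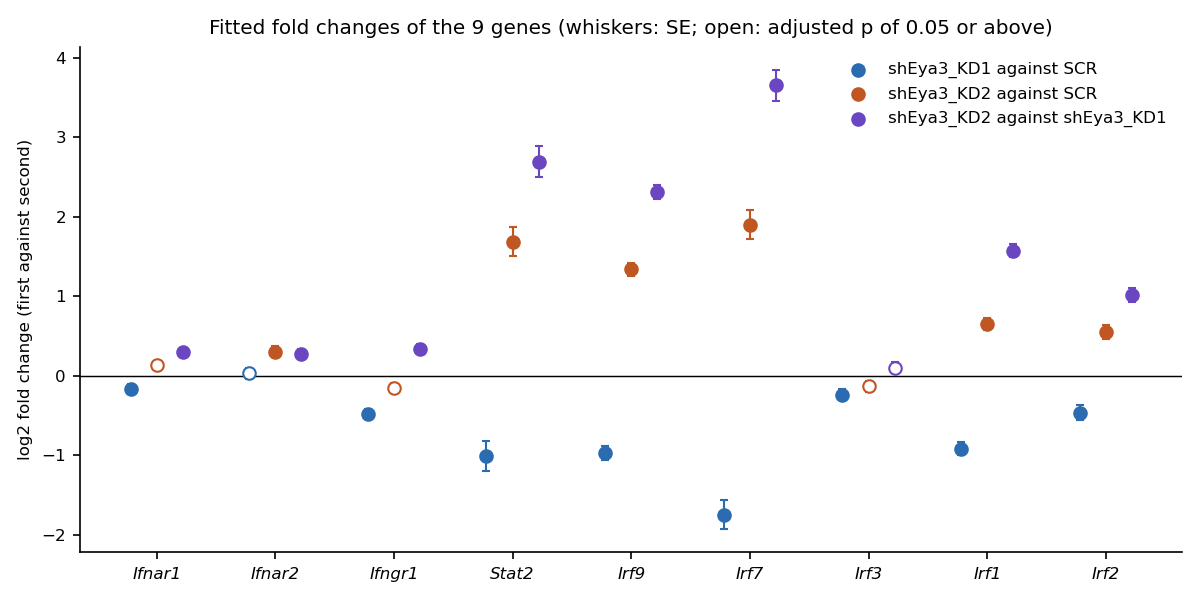
Fitted log2 fold changes (vertical axis, whiskers SE) of the 9 genes in the 3 comparisons, with filled points past the threshold and open points not. Irf7 spans -1.75 to 1.90 against SCR and 3.65 between the hairpins, while Ifnar1, Ifnar2, Ifngr1 and Irf3 stay within 0.5 of 0.

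Within shEya3_KD2 the libraries were not alike. Replicate 2 was the highest of the 3 for Stat2, Irf9, Irf7, Irf1, Irf2 and Ifnar1, but not for Ifnar2, Ifngr1 and Irf3. How many of all genes tested were highest there was not counted. Among the markers, Esr1 and Pdgfrb were also highest in replicate 2, while Krt8 and Vim were highest in replicate 1. In replicate 2 the log2 difference from the SCR mean, taken on log2(CPM + 0.5), was 2.32 for Irf7 against 1.57 and 1.67 in replicates 1 and 3. For Stat2 it was 2.11 against 1.42 and 1.39. Over 38 tested effector genes, taken from a list of interferon-induced genes, the median of the same difference was 2.01 in replicate 2 and 1.42 and 1.48 in the others. For Irf3 it was -0.14, -0.15 and -0.12 in replicates 1, 2 and 3, and for Ifngr1 -0.16, -0.16 and -0.12, so these genes did not stand apart in replicate 2. Replicate 2 was also the shallowest library, and the part of depth in this was not tested.

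Levels of different genes were compared per kilobase of annotated exon (RPKM, GENCODE M21, all transcripts merged), since longer mRNAs give more reads. Merged exons can be longer than a single mRNA: those of Irf7, 3776 bases over 13 transcripts, cover its whole annotated span. The order of genes and the size of a ratio between genes depend on these lengths. Differences of a ratio between groups do not. In SCR the order was Irf1 (15.4 ± 1.07 RPKM, SD, n = 3), Irf7 (13.5 ± 0.567), Irf3 (10.5 ± 0.302), Ifngr1 (10.3 ± 0.328), Ifnar1 (7.79 ± 0.204), Irf9 (7.37 ± 0.362), Stat2 (7.13 ± 0.727), Ifnar2 (5.86 ± 0.130) and Irf2 (3.81 ± 0.105). Neighbours whose libraries overlapped were Irf3 with Ifngr1, Ifnar1 with Irf9 and Irf9 with Stat2. In shEya3_KD1 Irf3 came first (8.93 ± 0.444 RPKM), Irf7 had dropped to the sixth place (3.99 ± 0.398 RPKM), and the overlapping neighbours were Ifngr1 with Ifnar1, Irf7 with Irf9 and Irf9 with Stat2. In shEya3_KD2 Irf7 led (50.3 ± 15.0 RPKM), followed by Irf1, Stat2 and Irf9, where Stat2 overlapped both others but Irf1 and Irf9 did not overlap, and Irf3 stood at 9.59 ± 0.110 RPKM. Irf2 was last in each group.

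Ratios of these length-scaled levels within a library show which pairs kept their proportion. Irf7 to Irf3 was 1.21, 1.30 and 1.33 in SCR, 0.492, 0.458 and 0.394 in shEya3_KD1 and 4.23, 7.11 and 4.44 in shEya3_KD2. This ratio was thus lowest in shEya3_KD1 and highest in shEya3_KD2, without overlap between groups. Its place relative to 1 depends on the exon lengths used, so which mRNA was the more abundant is not read from it. Irf1 to Irf2 was 4.04 ± 0.293 in SCR, 2.96 ± 0.285 in shEya3_KD1 and 4.33 ± 0.0706 in shEya3_KD2 (SD, n = 3), so that the libraries of SCR and shEya3_KD2 overlapped and those of shEya3_KD1 lay below.

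Stat2 to Irf9 overlapped between SCR (0.966 ± 0.0537) and shEya3_KD1 (0.944 ± 0.0303), and was 1.12, 1.47 and 1.05 in shEya3_KD2. Ifnar1 to Ifnar2 was 1.33 ± 0.0617 in SCR, 1.17 ± 0.0410 in shEya3_KD1 and 1.18 ± 0.0210 in shEya3_KD2, lower with each hairpin without overlap. In 2-sided exact permutation tests 9 of the 12 comparisons of ratios had the smallest p that 3 against 3 libraries allow (0.1), which is 0.133 after Benjamini-Hochberg adjustment. The other comparisons, where groups overlapped, had exact permutation p of 0.3, 0.6 and 0.7 (adjusted 0.36, 0.655 and 0.700).

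**Figure D3:**
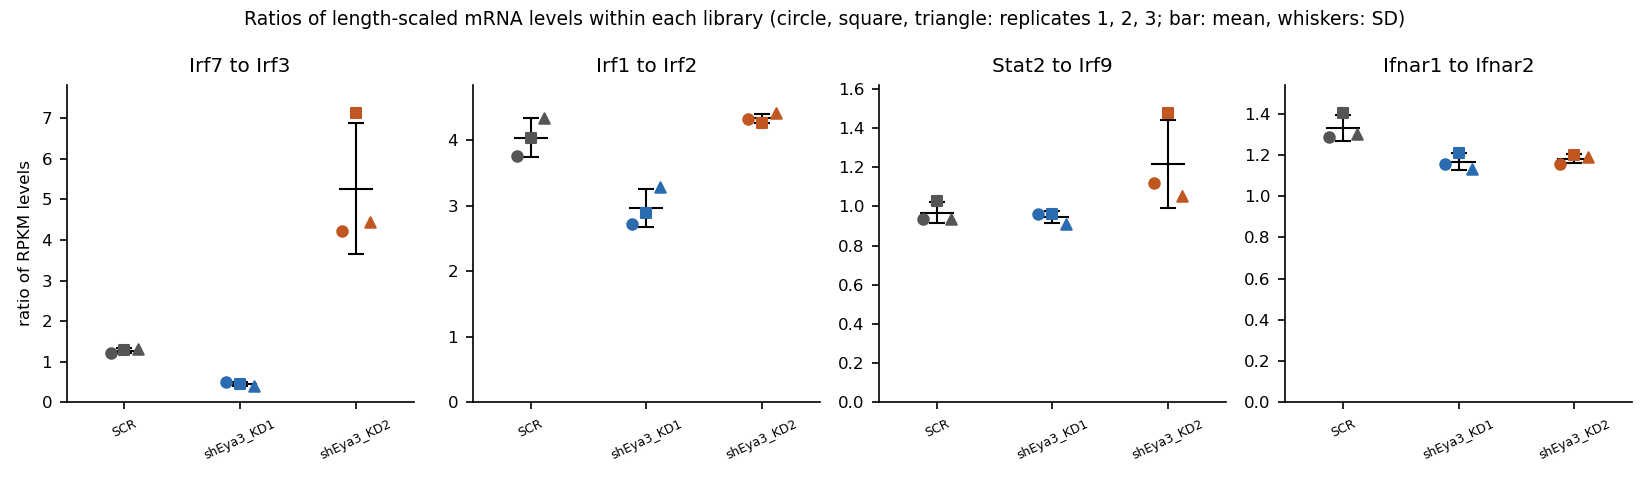
Ratios of RPKM levels of named gene pairs (vertical axes, from 0) in each library, with mean and SD of 3 libraries. The ratio of Irf7 to Irf3 is below 1 in shEya3_KD1 and above 4 in shEya3_KD2, and Stat2 to Irf9 overlaps between SCR and shEya3_KD1.

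For each gene the 3 most similar patterns were sought among 10660 genes with a mean of at least 1 CPM, by the root mean square difference of log2 values centred on the SCR mean over the 9 libraries. These are descriptions over libraries that share groups and controls. The closest to Irf7 were Dhx58, a cytosolic RNA-helicase regulator of viral sensing (difference 0.071), Xaf1 (0.17) and Ifi207 (0.18), and Dhx58 went from 15.1 CPM in SCR to 4.40 and 56.3 CPM with shEya3_KD1 and shEya3_KD2. Closest to Irf9 were Sp110 (0.058), Itgb7 (0.11) and the ubiquitin ligase Trim25 (0.13). Stat2 had Helz2 (0.13), the peptide transporter subunit Tap1 (0.13) and Apol9b (0.14) nearest, and Irf2 had Erap1, a peptidase that trims class I peptides (0.085), Flot2 (0.090) and Lrch3 (0.093). Irf1 had Gpr137b (0.069), the galectin Lgals9 (0.089) and Itpripl2 (0.095). The nearest genes of Irf3 (Cstf3, 0.032), Ifnar1 (Snx9, 0.031), Ifnar2 (Sf3b3, 0.031) and Ifngr1 (Ninj1, 0.029) had small differences, as many genes of narrow range do.

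The interferon ligands themselves were at the limit of detection. Of 21 ligand genes, 17 had no counts in SCR, 18 none in shEya3_KD1 and 17 none in shEya3_KD2. Ifnb1, the interferon beta gene, had 0, 5 and 2 counts in SCR replicates 1, 2 and 3, then 0, 1 and 1 with shEya3_KD1, and 17, 9 and 20 with shEya3_KD2. Its mean was 0.0488 CPM in SCR and 0.379 CPM in shEya3_KD2 (log2 fold change 2.89 ± 0.57). Ifnb1 passed the filter on low counts only through its shEya3_KD2 libraries, so its edgeR test is not given as evidence of a rise. The ratio of shEya3_KD2 to shEya3_KD1 was 22.4 (95% counting interval 5.85 to 190, which covers counting error only). Ifng had 1 count in SCR and none with either hairpin, too few to compare.

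Among the other genes of the pathway, taken from 4 fixed lists, 48 of 54 were tested with edgeR. With shEya3_KD1 6 rose and 26 fell (all genes tested: 24.1% and 26.2%), with a median log2 fold change of -0.35. With shEya3_KD2 24 rose and 6 fell (23.0% and 22.3%), with a median of 0.24. Between the hairpins (27% and 22.5%) 33 were higher with shEya3_KD2 and 2, Socs3 and Pias3, were lower (1 without shEya3_KD1 replicate 2 or 3 or without shEya3_KD2 replicate 1 or 3). Medians of all genes tested lay within 0.014 of 0 in the 3 comparisons.

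The kinase Jak1, shared by all interferon receptors, fell with shEya3_KD1 from 201 ± 3.16 to 154 ± 14.4 CPM (log2 fold change -0.39 ± 0.07) and was at 210 ± 10.7 CPM in shEya3_KD2 without a call. Tyk2, the kinase of Ifnar1, passed in none of the comparisons, with 37.3 ± 3.11, 36.0 ± 3.99 and 42.6 ± 4.31 CPM in SCR, shEya3_KD1 and shEya3_KD2. Its adjusted p was 0.0510 by edgeR between the hairpins and below the threshold there without a filter (0.00988) and without SCR replicate 2 (0.0430), shEya3_KD1 replicate 1 (0.0139) or shEya3_KD2 replicate 3 (0.0108). Against SCR, Tyk2 passed with shEya3_KD2 when shEya3_KD2 replicate 3 was left out (0.0319).

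Of 10 other Irf and Stat factors 7 were tested, and those named here differed in direction. Stat6, which serves interleukin-4, fell with both hairpins, from 219 ± 9.79 CPM to 127 ± 7.89 CPM (shEya3_KD1) and 179 ± 6.94 CPM (shEya3_KD2). Stat5b rose with both, from 23.8 ± 2.37 to 31.4 ± 0.303 and 38.3 ± 2.02 CPM. Stat3, activated by interleukin-6, rose with shEya3_KD2 (log2 fold change 0.57 ± 0.09) and was at 0.047 ± 0.091 with shEya3_KD1, or -0.043 without shEya3_KD1 replicate 1. Irf5 rose with shEya3_KD2 from a low level, from 0.271 ± 0.113 to 1.35 ± 0.581 CPM. Stat4 had 51 counts in SCR, 1 in shEya3_KD1 (ratio 41.9, 95% counting interval 7.19 to 1687) and none in shEya3_KD2 (at least 11.3-fold lower by the same kind of interval, and 14.4-fold with 3 counts taken as the group's detection limit). Irf4 and Irf8, factors of lymphoid and myeloid cells, had at most 4 counts in any group.

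Of 17 tested feedback inhibitors and phosphatases 3 rose and 10 fell with shEya3_KD1 (all genes tested: 24.1% and 26.2%). With shEya3_KD2 6 rose, 3 fell and 8 had no call (all genes tested: 23.0% rose and 22.3% fell). The 4 genes described here are those with the largest called changes. Usp18 is an Ifnar2-binding protease that dampens the receptor. It went from 19.9 ± 1.17 CPM to 8.38 ± 0.693 CPM with shEya3_KD1 and 98.0 ± 24.3 CPM with shEya3_KD2. Isg15, the ubiquitin-like modifier, went from 41.0 ± 2.67 to 20.4 ± 1.74 and 160 ± 30.9 CPM. Both genes thus moved in the direction of Stat2 and Irf7. Socs2 and Cish, inhibitors best known from Stat5 signalling, fell with shEya3_KD1 and had no call with shEya3_KD2. Socs2 went from 4.53 ± 0.640 to 1.36 ± 0.191 CPM, and Cish from 108 counts to 1 (ratio 88.7, 95% counting interval 15.6 to 3537). They stood at 5.25 ± 0.812 CPM and at 119 counts in shEya3_KD2, and each differed between the hairpins (adjusted p = 2.13e-07 and 9.99e-08 by edgeR).

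The list of sensors, adaptors and kinases upstream of Irf3 and Irf7 had 11 of 18 tested members lower with shEya3_KD1 (all genes tested: 26.2%) and 12 of 18 higher with shEya3_KD2 (23.0%). The RNA sensor Ddx58 (RIG-I) went from 82.5 ± 9.08 to 30.9 ± 2.14 and 206 ± 57.7 CPM, and Ifih1 (MDA5) from 27.1 ± 0.468 to 17.2 ± 0.588 and 84.8 ± 23.2 CPM. Zbp1, which binds left-handed RNA and DNA, had log2 fold changes of -2.97 ± 0.42 and 2.53 ± 0.28, and Dhx58 of -1.77 ± 0.18 and 1.90 ± 0.16. Of the 38 tested effector genes, 33 fell and 1, Ifit2, rose with shEya3_KD1, where none rose without SCR replicate 2 or 3 or without shEya3_KD1 replicate 1 or 2. With shEya3_KD2 37 of the 38 rose. Of all genes tested 26.2% fell with shEya3_KD1 and 23.0% rose with shEya3_KD2. The median log2 fold changes of the effectors were -1.36 and 1.69, wider than those of the 9 genes (-0.48 and 0.55), a gap that was not tested.

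**Figure D4:**
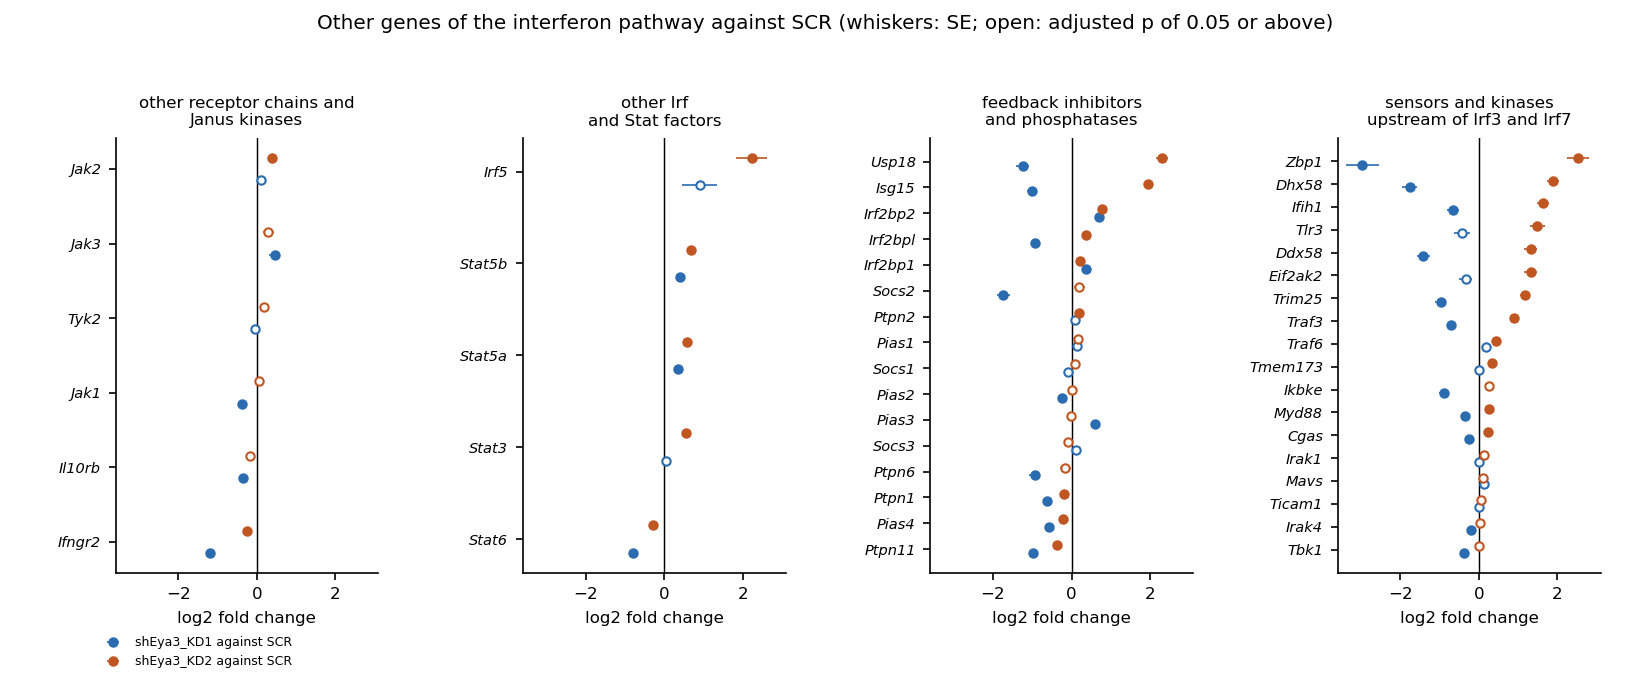
Fitted log2 fold changes against SCR (horizontal axes, whiskers SE) of other pathway genes in 4 lists, for shEya3_KD1 (blue) and shEya3_KD2 (orange), with open points not past the threshold. Stat4 and Cish, with 1 or no counts in a group, are among the genes not drawn. Usp18, Isg15, Zbp1, Dhx58, Ddx58 and Ifih1 lie on opposite sides of 0 with the 2 hairpins, whereas Stat6 lies below 0 and Stat5b above 0 with both.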

How the data were processed

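Libraries were made with a NuGEN Universal Plus mRNA kit, per the labels' protocols. The submitters' processing notes name STAR, FastQC, MultiQC and mm10 but no version. Which program counted reads, on which annotation and with what strand setting, is not given in the sources used here. Values are unnormalized read counts by gene symbol, used as deposited. Groups and replicate numbers came from sample titles.

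The analysis used edgeR 4.0.16 under R 4.3.3: filterByExpr (15914 of 55418 symbols kept), TMM factors, 1 quasi-likelihood fit of all 9 libraries with group as the only term, and Benjamini-Hochberg adjustment over all genes tested at a threshold of 0.05. The fit was also run on simulated counts in which far fewer genes changed than were called here. Its error rate in data like these was therefore not tested. Standard errors derive from fold change and F statistic. Counts of same-group libraries varied beyond sampling noise (chi-square over degrees of freedom 9.24 to 45.2). Exact permutation over 3 against 3 libraries cannot go below 0.1. Exon lengths, overlaps and gene coordinates are from GENCODE M21 (mm10). The list symbol Mb21d1 was read as Cgas, its newer name.

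The 9 genes and the lists were chosen with earlier results of these data known. Named were the 9 genes, ligands, receptor chains, kinases, Irf and Stat factors of the lists, up to 4 genes per other list by largest called change, and the 3 most similar patterns per gene; Socs3, Pias3 and Ifit2 are named because small counts fell on them. Some listed genes enter the counts of their list but are not reported here by name. As alternatives, the fits were repeated with RLE size factors, with DESeq2 1.42.0, with limma-voom (limma 3.58.1), without a filter, with 5 CPM in 3 libraries, only the groups compared, a replicate block, and each library left out.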

Additional observations from a re-analysis of the deposited data

Results flagged for a closer look

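The effect of the hairpins differed for 8 of the 9 genes, by the test of shEya3_KD2 against shEya3_KD1 in edgeR, which is the difference of both effects against the same SCR libraries. On the log2 scale the difference was 3.65 for Irf7, 2.69 for Stat2, 2.31 for Irf9, 1.57 for Irf1, 1.02 for Irf2, 0.33 for Ifngr1, 0.29 for Ifnar1 and 0.27 for Ifnar2, each higher with shEya3_KD2. The adjusted p ranged from 1.63e-11 (Irf9) to 0.00327 (Ifnar2). Eya3 itself was 0.70 higher with shEya3_KD2, and 49.6% of all genes tested differed between the hairpins. For Irf7, Stat2, Irf9, Irf1 and Irf2 the effects against SCR were past the threshold in opposite directions. Groups of 3 libraries were not tested for outlying samples.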

How the results depend on the processing

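Over 27 fold changes of the 9 genes and 16 alternatives (432 values), 422 kept direction and side of the threshold, 5 lost the call (Ifnar1 with shEya3_KD1), 4 gained one (Ifngr1 and Irf3 with shEya3_KD2), and 1 changed sign. The members that fell with shEya3_KD2 against SCR, 0 in edgeR, numbered 1 with RLE size factors, 1 in DESeq2 and 2 with a filter of 5 CPM. Without a filter 1 effector fell with shEya3_KD2 against SCR and 1 other pathway gene fell between the hairpins. With each library left out, other pathway genes lower with shEya3_KD2 than shEya3_KD1 numbered 1 to 2, effectors that rose with shEya3_KD1 0 to 1, and members that fell with shEya3_KD1 7 to 8. With each library left out and shEya3_KD1 against SCR, log2 fold changes ranged from -0.0036 to 0.040 for Ifnar2, from -0.043 to 0.085 for Stat3 and from -0.13 to 0.017 for Tyk2, none of them called. Genes called ranged from 5866 to 8693, 5686 to 7695 and 6122 to 8433 in shEya3_KD1 against SCR, shEya3_KD2 against SCR and between the hairpins. The causes were not tested.

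Same-numbered libraries did not consistently deviate together, with correlations of -0.21 to 0.36. The highest were 0.36 for replicate 3 of both hairpins and 0.31 for replicate 2 of SCR and shEya3_KD2. Not every library correlated best with its own number, so the numbers were not taken as pairs. The replicate block gave 8093, 7329 and 8017 calls, against 8011, 7210 and 7889 without it, and left the counts of members at 8 lower, 6 higher and 8 higher. With it Tyk2 passed between the hairpins (adjusted p = 0.0275 by edgeR). Depth limits the ligands, Stat4 and Cish, with counts near 0 in at least 1 group.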
